A study of Mus musculus with 8 samples.

Results

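The Peg10 region is a cluster of imprinted genes on the proximal part of mouse chromosome 6. Allelic expression of its 8 genes Peg10, Sgce, Casd1, Ppp1r9a, Pon2, Pon3, Asb4 and Calcr was examined in single blastocysts. The genes were taken by symbol, and all 8 were among the 22810 genes with counts. Embryos were collected on embryonic day 3.5 (E3.5) from natural mating in both directions between C57BL/6 (B6), a standard inbred laboratory strain, and cast, an inbred strain of the subspecies Mus musculus castaneus. The forward cross had a B6 mother and a cast father (3 embryos, numbered 1, 2 and 3), and the reverse cross a cast mother and a B6 father (5 embryos, numbered 1, 2, 3, 5 and 7). All embryos were untreated F1 hybrids and each gave 1 SMART-Seq2 compatible RNA-seq library. Reads spanning a SNP between the strains were counted per gene and allele, so that a B6 read is maternal in a forward embryo and paternal in a reverse embryo.

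Imprinted genes are expressed mainly from the maternal or the paternal copy. In this cluster a differentially methylated region, methylated on the maternal copy, lies at the promoter that Peg10 and Sgce share. Peg10 and Sgce are known as paternally expressed, whereas Ppp1r9a, Pon2, Pon3, Asb4 and Calcr are known for higher maternal expression in particular tissues, the placenta or the brain among them. In a reciprocal cross, a parental effect keeps its parent and changes its strain between the crosses, whereas a strain effect keeps its strain and changes its parent.

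In mm10, Calcr was at chr6:3685680-3764714 on the minus strand, Casd1 at chr6:4600839-4643355 on the plus strand, and Sgce at chr6:4674350-4747207 on the minus strand. Peg10 followed at chr6:4747306-4760517 on the plus strand, head to head with Sgce and 99 bp from it. Distal of Peg10 were Ppp1r9a at chr6:4902917-5165661 (plus), Pon3 at chr6:5220852-5256286 (minus), Pon2 at chr6:5264147-5298455 (minus) and Asb4 at chr6:5383386-5433022 (plus). An exon of Pon2 overlaps the unconfirmed transcript Gm44424 on the opposite strand, and since the use of strand in counting is not stated, reads of the pair cannot be told apart.

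Start sites differed in CG dinucleotides, the sites at which DNA methylation occurs in mammals. RefSeq promoter windows (GRCm38.p6, 250 bases before to 50 after a start) were held for 6 of the 8 genes, without an entry for Peg10 and Sgce. CG was counted in each window, where it reads the same on both strands. The median of 32851 windows was 7 CG. The windows of the 3 genes with a called difference are shown 5′ to 3′ on the gene's strand with each CG in capitals. They are chr6:4903061-4903360 (plus) for Ppp1r9a, chr6:4600661-4600960 (plus) for Casd1 and chr6:5298291-5298590 (minus) for Pon2.
Ppp1r9a: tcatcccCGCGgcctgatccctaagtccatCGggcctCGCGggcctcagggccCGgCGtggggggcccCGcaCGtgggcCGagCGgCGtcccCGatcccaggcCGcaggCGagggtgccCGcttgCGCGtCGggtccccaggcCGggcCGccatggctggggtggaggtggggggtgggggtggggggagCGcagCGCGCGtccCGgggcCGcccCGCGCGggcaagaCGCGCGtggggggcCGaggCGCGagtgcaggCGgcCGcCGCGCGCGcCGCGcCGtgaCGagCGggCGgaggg
Casd1: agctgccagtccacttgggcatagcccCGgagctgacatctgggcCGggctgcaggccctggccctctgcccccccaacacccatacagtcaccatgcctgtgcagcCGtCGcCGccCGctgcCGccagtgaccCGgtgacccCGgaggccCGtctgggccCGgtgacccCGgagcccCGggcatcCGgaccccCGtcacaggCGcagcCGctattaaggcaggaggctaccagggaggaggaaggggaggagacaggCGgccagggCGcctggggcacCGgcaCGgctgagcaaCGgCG
Pon2: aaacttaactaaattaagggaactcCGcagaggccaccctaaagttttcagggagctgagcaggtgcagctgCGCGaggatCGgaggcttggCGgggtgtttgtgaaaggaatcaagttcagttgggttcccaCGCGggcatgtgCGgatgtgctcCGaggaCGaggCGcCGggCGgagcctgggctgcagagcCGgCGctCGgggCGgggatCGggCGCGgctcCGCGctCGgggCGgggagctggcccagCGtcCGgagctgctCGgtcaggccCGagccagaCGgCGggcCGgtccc
The Ppp1r9a window held 48 CG, a number reached by 1.22% of all windows. A second window for Ppp1r9a at chr6:4902725-4903024 held 10, a number reached by 43.5%. The Pon2 window held 31 CG (10.6% of windows with at least as many) and the printed Casd1 window 23 (21.5%). A second Casd1 window at chr6:4623661-4623960 held 5, a number reached by 62% of windows. Among the genes without a called difference, the Calcr windows held 29 (12.9%) and 4 CG (68.6%). Those of Asb4 held 6 and 8, and that of Pon3 held 7. Methylation was not measured in these libraries.

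The embryos had 1060063 to 1632695 SNP-spanning reads each, of which 57.4% to 58.3% were B6. All 11 genes of a blastocyst marker list were detected in every embryo. Their summed level was 3857 to 5185 RPM (reads scaled to 1000000 SNP-spanning reads of the embryo) in 7 embryos and 1192 in reverse embryo 1. In that embryo the trophectoderm keratins Krt8 and Krt18 had their lowest counts, 456 and 285 reads. Cdx2, Eomes and Sox17 were also lowest there (5, 74 and 4 reads), whereas Gata6 and Tfap2c were highest (232 and 127). Leukocyte markers summed to 867 RPM in forward embryo 1 (1412 of 1415 reads maternal, led by Lyz2 with 1055 and C1qb with 245), to 43.4 and 56.4 in forward embryos 2 and 3, and to 3.75 to 5.98 in the reverse embryos. The pan-leukocyte gene Ptprc had 27 reads in forward embryo 1 and 0 in the other 7 embryos. Markers of cumulus cells summed to 2.35 to 11.3 RPM, of red blood cells to 2.67 to 51.2, and of uterine and oviduct epithelium to 85.1 to 210. Hbb-bs, the only globin of that list with counts, had 2 reads, both maternal. The other red blood cell reads were those of Alas2 (199 maternal, 6 paternal), and whether they came from the embryo was not tested. The uterine and oviduct sum was led by Wfdc2, with 427 maternal and 469 paternal reads, followed by Msx1 with 187 and 83. Results below are given without forward embryo 1 and without reverse embryo 1 where that matters.

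Across the region, 6 of the 8 genes had enough reads to be tested for a parental and a strain effect (10 or more reads in 1 or more of the 16 allele libraries). In the quasi-likelihood test of edgeR, a gene was called where its adjusted p did not exceed 0.1, with Benjamini-Hochberg adjustment over all 12565 genes tested. Toward paternal expression, 2 genes were called (Ppp1r9a and Casd1), beside 1.11% of all genes tested. Toward maternal expression 0 were called, beside 0.318%, and 0 of the 6 had an unadjusted p under 0.05 in that direction in edgeR or in DESeq2. For strain, 2 genes were called toward B6 (Ppp1r9a and Pon2), beside 11%, and 0 toward cast, beside 4.45%. In that direction DESeq2 also called 0, and 1 gene (Calcr) had an unadjusted p under 0.05 in edgeR. The median log2 fold change of paternal over maternal alleles was 1.60 over the 6 genes and -0.01 over all genes tested, and that of cast over B6 alleles was -1.58 and -0.06. Both other models named the same genes. In a paired fit, with a term for each embryo, Ppp1r9a and Casd1 were called paternal (2.08% of all genes) and Ppp1r9a and Pon2 toward B6 (15.8%), with 0 members called maternal (1.02%) or toward cast (9.69%). DESeq2 gave 2, 2, 0 and 0 members in the same order, beside 1.51%, 11.7%, 0.517% and 5.67% of genes. The calls were then also required to reach a minimum log2 fold change, with the same direction and at least 20 reads in each cross. Of the 6 genes 0 remained, beside 1.07% of all genes. Casd1 was mainly paternal in both crosses but had 15 forward reads, whereas Ppp1r9a changed its direction in pooled reads between the crosses.

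**Figure D1:**
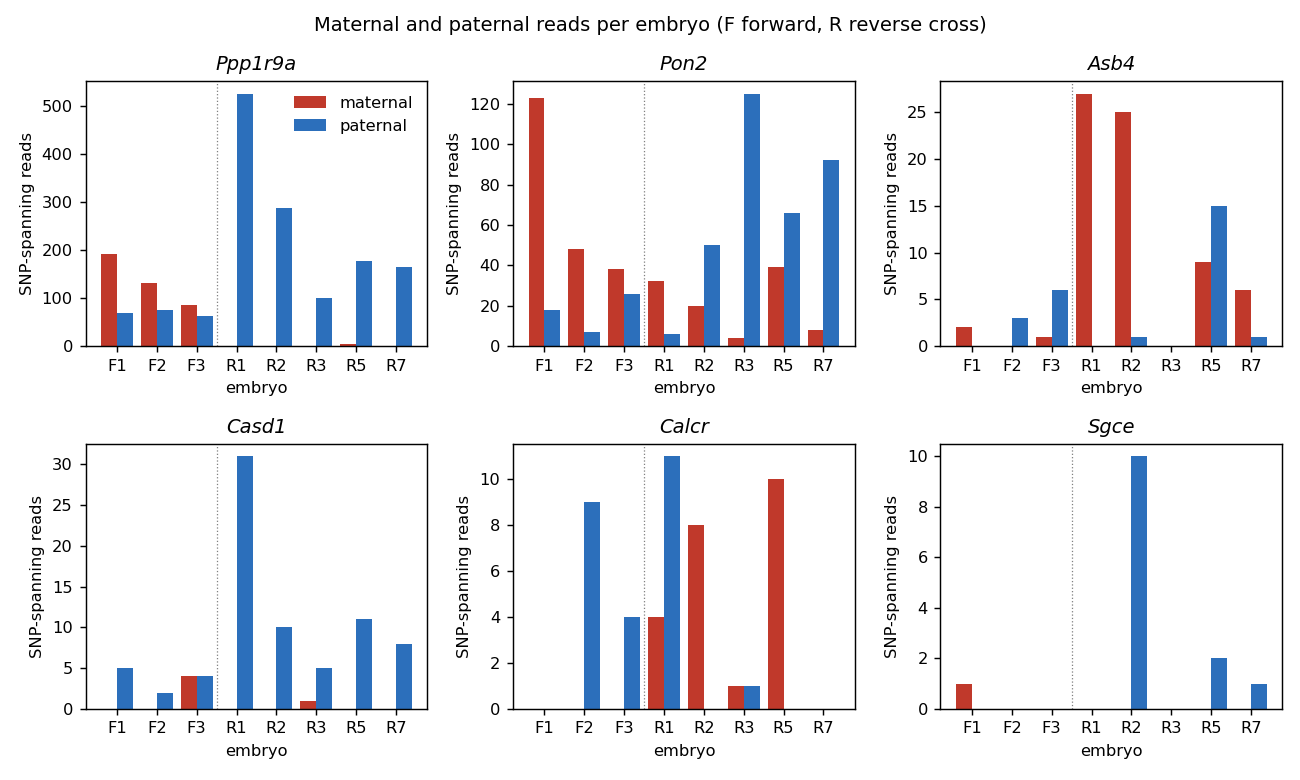
SNP-spanning reads from the maternal (red) and paternal (blue) allele of the 6 tested genes in each embryo (F, forward; R, reverse), with a separate vertical scale for each gene. Ppp1r9a has reads from both parents in every forward embryo and 0 to 4 maternal reads in each reverse embryo, whereas Pon2 changes its leading parent between embryos.

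The paternally expressed core of the cluster had few SNP-spanning reads, and reads without a SNP were not examined. Peg10, a retrotransposon-derived gene required for placental development, had 1 read in all 8 embryos, a paternal B6 read in reverse embryo 7. This allowed no statement on its allelic expression. Sgce, which encodes epsilon-sarcoglycan, had 14 reads, all of them B6. Forward embryo 1 had 1 of these reads, there maternal, and reverse embryos 2, 5 and 7 had 10, 2 and 1, there paternal. With 13 of the 14 reads in the reverse cross, parent and strain cannot be told apart for Sgce. Its log2 fold change was 1.91 for paternal over maternal (edgeR, adjusted p = 1.0) and -3.04 for cast over B6 (adjusted p = 0.188). With strain as the only term, the strain value was -3.66 and was called toward B6 (edgeR, adjusted p = 0.0917).

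Casd1, which encodes a sialic acid O-acetyltransferase of the Golgi, had 81 reads, of which 76 were paternal and 5 maternal. In the forward cross, paternal cast reads numbered 5, 2 and 4 in embryos 1, 2 and 3, and maternal B6 reads 0, 0 and 4. In the reverse cross, paternal B6 reads numbered 31, 10, 5, 11 and 8 in embryos 1, 2, 3, 5 and 7, and maternal cast reads 0, 0, 1, 0 and 0. Paternal reads outnumbered maternal reads in 7 of 8 embryos, and forward embryo 3 had equal numbers. The pooled paternal share was 73.3% in the forward cross (95% Wilson interval 48.0% to 89.1%, 15 reads) and 98.5% in the reverse cross (91.9% to 99.7%, 66 reads). The log2 fold change of paternal over maternal was 3.20 ± 0.86 (SE; edgeR, adjusted p = 0.0862), and that of cast over B6 was -1.57 ± 0.83 (adjusted p = 0.263).

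The parental call of Casd1 rested on few reads and moved with single embryos. It was lost without forward embryo 1 (adjusted p = 0.363 in edgeR), without forward embryo 2 (0.241), and without reverse embryo 1 (0.223), 2 (0.179), 5 (0.198) or 7 (0.185). It stood without forward embryo 3 (0.0541) and without reverse embryo 3 (0.0638). Log2 fold changes were 2.79 to 4.55 in these 8 fits. The level of Casd1 was 20.6 RPM in reverse embryo 1 and 1.74 to 8.26 in the other embryos.

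Ppp1r9a, which encodes the actin-binding protein phosphatase subunit neurabin-1, had the most SNP-spanning reads of the 8 genes, 1875. In the forward cross, B6 and cast reads numbered 192 and 69 in embryo 1, 131 and 75 in embryo 2, and 86 and 63 in embryo 3. In the reverse cross, B6 reads numbered 525, 287, 101, 176 and 165 in embryos 1, 2, 3, 5 and 7, against 0, 1, 0, 4 and 0 cast reads. Cast transcripts were thus present in every forward embryo, where cast is paternal, and nearly undetected in every reverse embryo, where cast is maternal. B6 transcripts were present in all 8 embryos whichever parent gave them.

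The paternal share of Ppp1r9a was 26.4%, 36.4% and 42.3% in the forward embryos (35.0% ± 8.01, SD, n = 3). In the reverse embryos it was 97.8% to 100% (99.5% ± 0.967, SD, n = 5). Its 95% Wilson intervals were 21.5% to 32.1%, 30.1% to 43.2% and 34.6% to 50.3% in forward embryos 1, 2 and 3, and their lower bounds in the reverse embryos were 94.4% to 99.3%. For reverse embryos 1, 3 and 7, in which 0 reads were maternal, shares of the maternal allele of up to 0.571%, 2.97% and 1.82% are allowed. In raw reads, the maternal allele was thus the larger in the forward cross and the smaller in the reverse cross, and the crosses did not overlap. With allele libraries scaled to the same total, the paternal share was 33.5% to 50.1% in forward and 97.0% to 100% in reverse embryos. The crosses still did not overlap, but the maternal allele was then not the larger in every forward embryo.

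Of the members, Ppp1r9a and Pon2 had at least 5 reads in enough embryos for an exact permutation test of shares between the crosses (2 of 8 genes; 56 assignments, two-sided, smallest possible p 0.0357). For Ppp1r9a the B6 share was 57.7% to 73.6% in forward and 97.8% to 100% in reverse embryos, a difference of 34.5 percentage points (exact p = 0.0357). This is the direction of a paternal effect, and 5.12% of 9174 genes had crosses that did not overlap in it. The paternal share differed by 64.4 percentage points (exact p = 0.0357), the direction of a B6 effect, for which 29.1% of these genes did not overlap. In edgeR, the log2 fold change was 2.54 ± 0.63 for paternal over maternal (SE, adjusted p = 0.0475) and -3.19 ± 0.64 for cast over B6 (adjusted p = 0.00125).

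**Figure D2:**
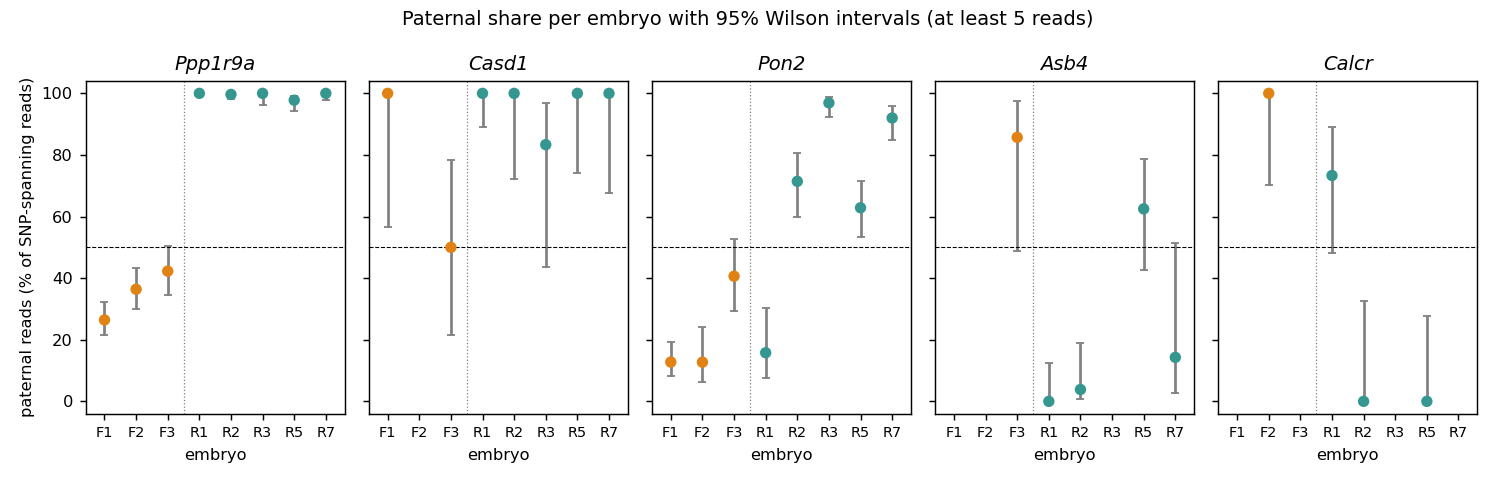
Paternal share of SNP-spanning reads in each embryo with at least 5 reads (orange, forward, F; teal, reverse, R); bars are 95% Wilson intervals, which cover counting error, and the dashed line marks equal shares. The 3 forward embryos of Ppp1r9a sit between 26.4% and 42.3% and the 5 reverse embryos between 97.8% and 100%, whereas the Pon2 reverse embryos spread from 15.8% to 96.9%.

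On the log scale, the difference of Ppp1r9a between parents varied with the strain of the allele. This was examined allele by allele, in a comparison added after the reads of the members were seen. Cast alleles had 42.3 to 65.1 RPM when paternal (52.2 ± 11.7, SD, n = 3) and 0 to 3.00 when maternal (0.726 ± 1.30, SD, n = 5; exact permutation p = 0.0357, the smallest possible). B6 alleles had 67.4 to 349 RPM when paternal (177 ± 105, SD, n = 5) and 67.3 to 118 when maternal (99.6 ± 28, SD, n = 3; exact permutation p = 0.179). Reverse minus forward, the mean difference was 77.2 RPM for B6 alleles and -51.5 RPM for cast alleles. The log2 fold change of the reverse over the forward cross was -6.00 ± 0.74 for cast alleles (edgeR, adjusted p = 2.87e-04 over 10341 genes). It was 0.78 ± 0.42 for B6 alleles (edgeR, adjusted p = 0.691 over 11735 genes). Cast alleles were called toward the forward cross in 1.46% of genes, and B6 alleles in 0.571% toward the reverse and 0.145% toward the forward cross.

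The difference itself was tested as an interaction of parent and strain. Since each allele has a single parent in each cross, this interaction is the same contrast as forward against reverse cross. An effect of the cross or of the strain of the mother cannot be told apart from it. The parental log2 fold change of cast alleles exceeded that of B6 alleles by 5.24 ± 0.80 (SE; edgeR, adjusted p = 0.00220), a call in this direction that 0.661% of the 12565 genes had, with 0.525% called in the opposite direction. It was called in each of the 8 fits that left out an embryo, with log2 values of 4.78 to 6.76 and adjusted p of 1.51e-04 to 0.0577. Among the other 5 tested members, interactions were not called (edgeR, adjusted p 0.476 to 1.0). The parental value of 2.54 from the model without an interaction is thus an average over unequal log2 fold changes of the B6 and the cast allele. This average was no longer called after removal of forward embryo 3 (adjusted p = 0.139), reverse embryo 1 (0.102), reverse embryo 2 (0.129) or reverse embryo 7 (0.105), whereas the strain effect of Ppp1r9a was called in all 8 of these fits.

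**Figure D3:**
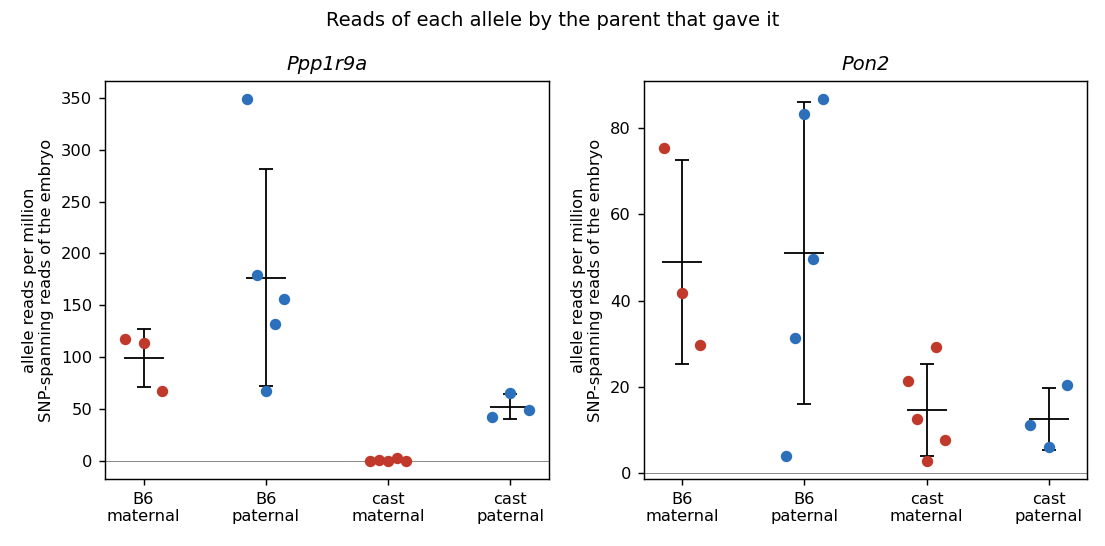
Reads of the B6 and cast alleles of Ppp1r9a (left) and Pon2 (right) in RPM, by the parent that gave the allele (red, maternal; blue, paternal); points are embryos, and bars are the mean ± SD of 3 forward or 5 reverse embryos. The cast allele of Ppp1r9a lies at 0 to 3.00 when maternal and at 42.3 to 65.1 when paternal, whereas its B6 allele and both alleles of Pon2 overlap between parents.

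Maternal reads of paternally expressed genes were set beside the forward values of Ppp1r9a. The genes were chosen with earlier results of these data known, and whether maternal cells express them was not examined. Over 10 paternally expressed genes (Slc38a4, Sfmbt2, Jade1, Peg3, Snrpn, Kcnq1ot1, Epas1, Slc38a1, Bbx and Gab1, all called paternal), the pooled maternal share was 5.55%, 3.41% and 0.654% in forward embryos 1, 2 and 3, against 0.230% to 0.810% in the reverse cross. The maternal share of Ppp1r9a in the same forward embryos was 73.6%, 63.6% and 57.7%. Leukocyte markers and the maternal share of Ppp1r9a were thus both highest in forward embryo 1, and the part of leukocyte RNA in that embryo was not tested. Without forward embryo 1, the forward B6 shares were 57.7% and 63.6%, the difference in B6 share between the crosses was 38.8 percentage points, and the interaction was still called.

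The summed level of Ppp1r9a was 117 to 179 RPM in the forward and 67.4 to 349 in the reverse embryos. The highest value was that of reverse embryo 1. Reverse over forward, its log2 fold change was 0.18 ± 0.39 (SE; edgeR, adjusted p = 0.948 over 13078 genes), and 0 of the 6 tested members were called for total level, beside 0.0382% of genes toward reverse and 0.0306% toward forward. The unadjusted p of these 6 genes was 0.0902 to 0.775 in edgeR, and DESeq2 called 0.

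Pon2, a paraoxonase family enzyme of the endoplasmic reticulum and mitochondria, had 702 reads, 78.1% of them B6. In the forward cross, B6 and cast reads numbered 123 and 18 in embryo 1, 48 and 7 in embryo 2, and 38 and 26 in embryo 3. In the reverse cross they numbered 6 and 32 in embryo 1, 50 and 20 in embryo 2, 125 and 4 in embryo 3, 66 and 39 in embryo 5, and 92 and 8 in embryo 7. B6 reads were in excess in 7 of 8 embryos, and reverse embryo 1, the embryo with low Krt8 and Krt18 reads, had a cast excess. The strain effect was called toward B6, the cast-to-B6 log2 fold change being -1.59 ± 0.51 (SE; edgeR, adjusted p = 0.0444). It was called without reverse embryo 1 (-1.81, adjusted p = 0.00287) but not after removal of forward embryo 1 (0.270), forward embryo 2 (0.148), reverse embryo 3 (0.112) or reverse embryo 7 (0.125).

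Neither allele of Pon2 differed between parents beyond the spread between embryos. The log2 fold change of paternal over maternal was -0.02 ± 0.49 (SE; edgeR, adjusted p = 1.0). An equivalence test against a log2 margin of 1 passed at an adjusted p of 0.0963 in edgeR, as did 35.6% of genes, but not in 11 of 16 alternatives. These were the paired fit by embryo (adjusted p = 0.124), the fits with parent as the only term (0.291), with 1 library size per embryo (0.111) and with a margin of 1.5-fold (0.506), and 7 of the 8 fits that left out an embryo (0.0720 to 0.322 over all 8). B6 alleles had 48.9 ± 23.6 RPM when maternal and 51.0 ± 35.1 when paternal (SD, n = 3 and 5; exact permutation p = 0.893). Cast alleles had 14.7 ± 10.7 RPM when maternal and 12.5 ± 7.25 when paternal (SD, n = 5 and 3; exact permutation p = 0.750). The B6 share was 78.0% ± 16.1 in forward and 67.8% ± 32.3 in reverse embryos (SD, n = 3 and 5; exact permutation p = 0.786). The paternal share was 22% and 67.8% with the same SDs (exact permutation p = 0.0714).

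The share of Pon2 varied among embryos of the same cross. Forward embryos 1, 2 and 3 had a paternal share of 12.8%, 12.7% and 40.6%. Reverse embryos 1, 2, 3, 5 and 7 had 15.8%, 71.4%, 96.9%, 62.9% and 92.0%. Wilson intervals of reverse embryo 1 (7.44% to 30.4%) and reverse embryo 3 (92.3% to 98.8%) did not overlap. The SD of 32.3 points in the reverse cross compared with a median of 9.06 over the 5608 genes with at least 20 reads in every embryo, and 5 of these genes had an SD at least as large, Pon2 included. With all 5 reverse embryos, the SD of Ppp1r9a was 0.967 points. Without reverse embryo 1, the reverse SD of Pon2 was 16.3 points (62.9% to 96.9%), beside 16.1 in the forward cross. Its paternal share then differed by 58.8 percentage points between the crosses (exact permutation p = 0.0571, the smallest possible with these embryos).

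Pon3, the paraoxonase next to Pon2, had 9 reads in all, of which 8 were cast and 1 was B6. By parent, 5 were maternal and 4 paternal. It was below the filter and was not tested.

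Asb4, an ankyrin repeat and SOCS box protein that takes part in ubiquitination, had 96 reads, 79.2% of them cast. In the forward cross, B6 and cast reads numbered 2 and 0 in embryo 1, 0 and 3 in embryo 2, and 1 and 6 in embryo 3. In the reverse cross they numbered 0 and 27, 1 and 25, 0 and 0, 15 and 9, and 1 and 6 in embryos 1, 2, 3, 5 and 7. Cast reads were in excess in 5 of the 7 embryos with a read, being paternal in the forward and maternal in the reverse embryos. Forward embryo 1 and reverse embryo 5 had a B6 excess. Neither the strain effect (log2 fold change of cast over B6 1.91, edgeR, adjusted p = 0.360) nor the parental effect (-0.33, adjusted p = 1.0) was called. Without reverse embryo 5 the strain effect was called (3.41, adjusted p = 0.0456 in edgeR).

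Calcr, the receptor of the hormone calcitonin, had 48 reads, 75.0% of them cast. Forward embryos 1, 2 and 3 had 0, 9 and 4 cast reads and 0 B6 reads. Reverse embryos 1, 2, 3, 5 and 7 had 4, 8, 1, 10 and 0 cast reads, and 11, 0, 1, 0 and 0 B6 reads. The B6 reads were thus in reverse embryos 1 and 3. Its log2 fold change of cast over B6 was 2.69 ± 1.25 (SE; edgeR, adjusted p = 0.190) and that of paternal over maternal was 1.29 ± 1.21 (adjusted p = 1.0). Without reverse embryo 1, the embryo with low Krt8 and Krt18 reads, the strain effect was called (4.45, adjusted p = 0.0154 in edgeR).

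Genes flanking the cluster were compared from a list of 20 symbols, of which 11 had counts and 7 were tested. Parental effects were called for 0 of the 7 in edgeR, beside 1.11% of all genes toward paternal and 0.318% toward maternal. Of the 7, 0 had an unadjusted p under 0.05, and DESeq2 called 0. Equivalence was called for 4, the endosomal recycling gene Vps50, the ER-to-Golgi SNARE gene Bet1, the mitochondrial carrier Slc25a13, and Shfm1, beside 35.6% of all genes. Strain effects were called for Dync1i1, a dynein intermediate chain (cast over B6 2.82 ± 0.69, adjusted p = 0.00733 in edgeR) and for Bet1 (-0.86 ± 0.31, adjusted p = 0.0830). Of all genes, 4.45% were called toward cast and 11% toward B6. Bet1 was no longer called after removal of any single forward embryo, or of reverse embryo 2, 5 or 7. Asns, the asparagine synthetase gene, had a log2 fold change of paternal over maternal of 0.75 ± 0.56 (edgeR, adjusted p = 1.0), and of 1.05 with an adjusted p of 0.0908 in edgeR with a term for each embryo. The tested neighbours closest to Peg10 on either side were Bet1 (start at -660.3 kb from the Peg10 start) and Dync1i1 (978.3 kb distal), and neither was called for parent.

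**Figure D4:**
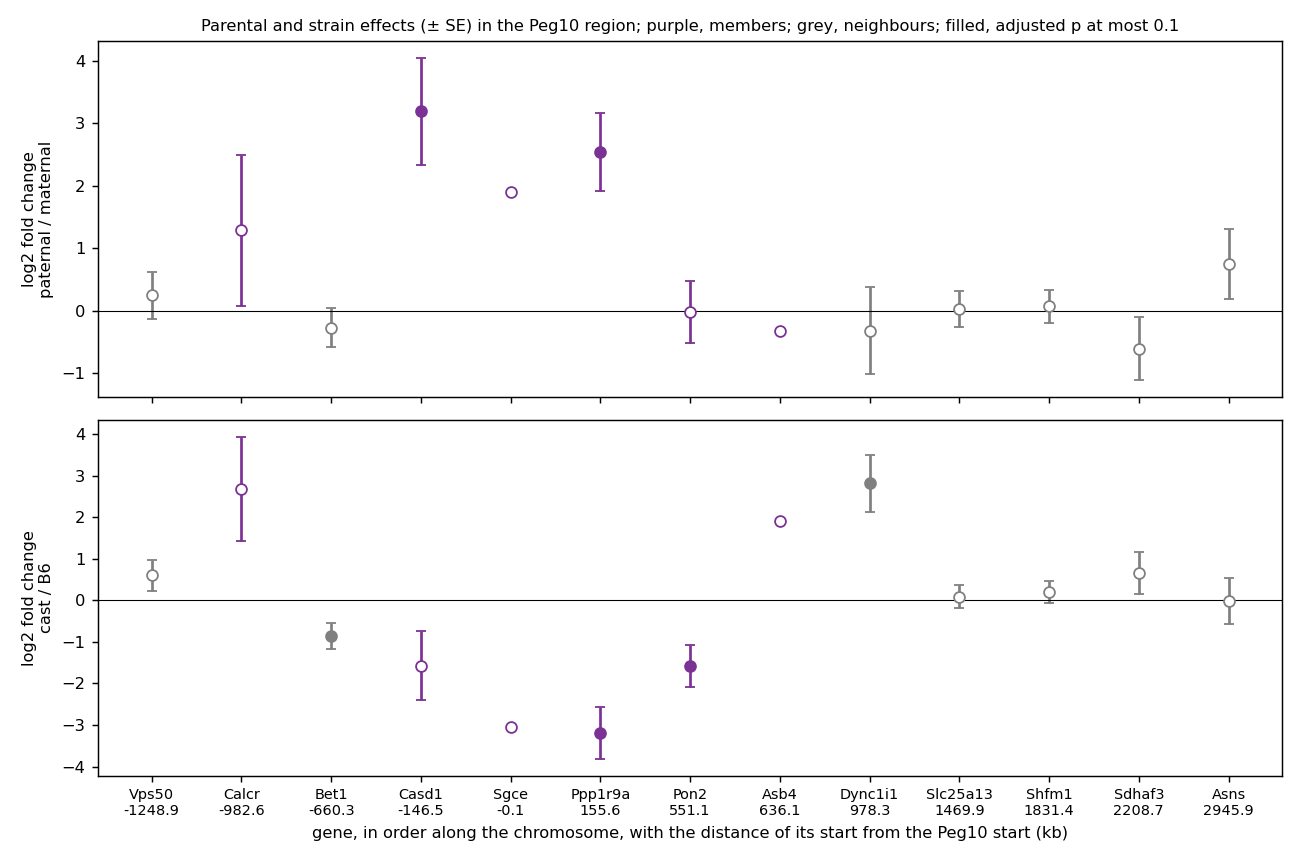
Log2 fold change of paternal over maternal (top) and of cast over B6 alleles (bottom) for the 6 tested members (purple) and 7 tested neighbours (grey), in order along the chromosome with the distance of each start from the Peg10 start in kb; bars are ± SE (not drawn for Sgce and Asb4), and filled points were called in edgeR. Casd1 and Ppp1r9a are called toward paternal, and Ppp1r9a, Pon2, Bet1 and Dync1i1 are called for strain.

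Genes with shares most like those of the members were sought among 5607 other genes with at least 20 reads in every embryo, by the mean absolute difference in paternal share over the 8 embryos. For Ppp1r9a the nearest were Schip1 (4.52 percentage points) and Gm21949 (4.61) on chromosome 3, and Cdh4 (5.30) on chromosome 2. Schip1 had a paternal share of 18.2% to 36.7% in the forward and 95.1% to 100% in the reverse embryos, and Gm21949 had the same shares in 7 of the 8 embryos. Schip1 had 480 reads and Gm21949 483, and whether the pair shares reads was not examined, so they may not be separate matches. Cdh4 had 29.4% to 57.2% and 96.7% to 100%. For Pon2 the nearest were Ccdc71 on chromosome 9 (8.80 points), Gm16023 on chromosome 4 (10.6) and Sulf2 on chromosome 2 (11.4), each with its lowest reverse share in reverse embryo 1. The search itself favours this, since Pon2 had its own lowest reverse share in that embryo.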

How the data were processed

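RNA of 8 single E3.5 blastocysts was sequenced with a SMART-Seq2 compatible protocol. According to the methods of the study, the authors aligned reads to mm10 with STAR, discarded reads mapping to multiple locations, kept reads over SNPs that differ between B6 and cast, and took reads per gene and strain from Allelome.Pro, and the deposited values are these counts without normalization. The authors left out samples numbered 4 and 6 for low mapping or too few reads. Whether counting used strand, and whether embryos shared a litter, is not given in the sources used here, so that p-values measure the spread between these embryos.

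Counts were assigned to parents by cross, giving 16 allele libraries. Genes were placed with GENCODE M21 by symbol, then with RefSeq (21055 autosomal genes of 22810; 1110 without a match hold 0.815% of reads), and X-linked and unplaced genes were not tested. edgeR 4.0.16 (R 4.3.3, limma 3.58.1) was run with TMM factors, terms for strain and parent, the quasi-likelihood test and Benjamini-Hochberg adjustment, on genes reaching 10 reads in any allele library, and genes were called at an adjusted p of at most 0.1. The strain effect is relative to each library's total, so the general excess of B6 reads is removed. Equivalence used a pair of one-sided tests against a log2 margin of 1. Total levels compared 3 with 5 embryos on summed reads. Shares were compared by exact permutation (SciPy 1.17.1) where 3 forward and at least 4 reverse embryos had 5 reads. Wilson intervals (95%) and limits for a count of 0 (3 counts) cover counting error only, since reads carry no molecular identifiers. The scripts were tested on simulated data.

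The maternal and paternal libraries of an embryo are a true pair (correlation of their deviations 0.0666 to 0.0969 in forward and 0.119 to 0.413 in reverse embryos), and a fit with a term for each embryo is an alternative, as are DESeq2 1.42.0, RLE factors, other filters and formulas, and leaving out each embryo.

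The members, neighbours, comparison genes and marker lists were chosen with earlier results of these data known. Named genes are the members, tested neighbours, the listed comparison genes, and the 3 genes nearest in paternal share to each member with at least 20 reads in every embryo. Marker genes named singly were chosen after their values were seen.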

Additional observations from a re-analysis of the deposited data

Results flagged for a closer look

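In the reverse cross, 12 sets of values of the members (paternal shares and RPM) were checked for a sample far from the others, and 5 had one. The usual chance rate of about 1 in 20 assumes normally distributed values. It does not hold for shares near 100% or levels near 0. Where the other 4 values are equal, any different value is flagged. Peg10 had 0.943 RPM in reverse embryo 7 and 0 in the other 4, which is a single read. Sgce had 6.26 RPM in reverse embryo 2, next to 1.5 in the following embryo. Casd1 had 20.6 RPM in reverse embryo 1, next to 8.26. Its paternal share was 83.3% in reverse embryo 3, from 6 reads, and 100% in the other 4. The paternal share of Ppp1r9a was 97.8% in reverse embryo 5 (4 maternal reads of 180), next to 99.7%.

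The paternal share of Ppp1r9a was 64.4 percentage points higher in reverse than in forward embryos (exact permutation p = 0.0357, the smallest possible with 3 against 5). This is the direction of a B6 effect, in which 29.1% of 9174 genes did not overlap, and it does not by itself show that the effect of parent differed. In the test of that difference, the log2 fold change of paternal over maternal was 5.24 higher for cast than for B6 alleles (edgeR, adjusted p = 0.00220 in a model added after the reads were seen). This is also the contrast of the forward against the reverse cross, and an effect of the cross cannot be told apart from it.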

How the results depend on the processing

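The parental effect of Ppp1r9a kept its direction in all 16 alternatives (log2 1.77 to 3.40). It lost its call with parent as the only term (1.77, adjusted p = 0.606 in edgeR), and leaving out an embryo gave 2.06 to 2.76. That of Casd1 was 2.79 to 4.55 when an embryo was left out. The strain effect of Ppp1r9a kept its call in all 16 alternatives (-4.0 to -2.52), and that of Pon2 was -1.97 to -1.29 when an embryo was left out. The number of members called paternal was 1 with parent as the only term and 1 with at least 10 reads in every embryo, which leaves Casd1 untested, and 0 to 2 when an embryo was left out. With strain as the only term, 3 members were called toward B6, Sgce being added (-3.66, adjusted p = 0.0917 in edgeR). Leaving out an embryo gave 1 to 2 members toward B6 and 0 to 1 toward cast, and neighbours called toward B6 0 to 1. A single library size per embryo moved the median strain effect of all genes from -0.06 to -0.40, against -3.56 for Ppp1r9a and -1.87 for Pon2 in that fit.

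The replicate block, a term for each embryo, called 1 neighbour (Asns) toward paternal and ended the equivalence call of Pon2, as did 10 of the other 15 alternatives, and changed no other call of the members and neighbours. With it, the parental effect of Ppp1r9a was 3.40 and its strain effect -4.0.

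Leaving out an embryo gave differences for Ppp1r9a of 30.9 to 38.8 percentage points in B6 share and 60.1 to 68.1 in paternal share, with exact permutation p of 0.0571 to 0.0952, the smallest these numbers of embryos allow. Directions of uncalled values reversed as follows. The parental effect of Pon2 was 0.41 with parent as the only term and -0.40 to 0.24 when an embryo was left out, and its B6 share differed by -19.5 to 2.84 points. The parental effect of Asb4 was -1.56 to 0.081, and the total level between crosses was -0.14 to 0.35 for Ppp1r9a, -0.047 to 0.45 for Pon2 and -0.25 to 1.54 for Calcr. Causes of these changes were not tested. Peg10 and Pon3 had too few SNP-spanning reads to be tested, and the few reads of Sgce, Calcr and Asb4 allow no firm statement. Why these reads were few was not examined. DESeq2 gave no adjusted p for the parental effect of Sgce.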

Other observations

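Further along chromosome 6, the imprinted region of Mest was represented by Mest with 26 reads, below the filter, and by Copg2. The parental log2 fold change of Copg2 was 0.35 ± 0.36 (SE; edgeR, adjusted p = 1.0). Its B6 share was 41.9% to 53.8% in forward and 56.8% to 83.3% in reverse embryos and did not overlap (exact permutation p = 0.0357, the smallest possible), beside 5.12% of genes. Herc3, at which the imprinted gene Nap1l5 lies, had 0.73 ± 0.54 (adjusted p = 1.0 in edgeR).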
